A study of Mus musculus with 2 samples.

Results

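The 9 coagulation and fibrinolysis genes Vwf, F8, Procr, Thbd, Plat, Plau, Tfpi, Tfpi2 and F2r were followed through the endothelial cells of the mouse mesentery, with and without Flcn. They were taken by symbol from the 28692 genes of the count tables, and all 9 were found. Their positions are given on GRCm38. Single-cell RNA counts came from 2 libraries of CD31+ cells isolated with magnetic beads at P8, 1 from control and 1 from Flcn iΔEC mice (Cdh5-BAC-CreERT2+ Flcn flox/flox) on the C57BL/6 strain, each pooled from 3 mice. Per the labels, 4-hydroxytamoxifen (40 µg) was injected subcutaneously at P2, then at P3.5, again at P5 and last at P6.5. The alleles that the control mice carried were not given in the sources used here. The Cre transgene is driven by Cdh5, which blood and lymphatic endothelial cells both express, so recombination is not confined to 1 vessel system. With 1 library per genotype no test between genotypes was possible, and each interval, given in brackets after a level, ratio or share, is an exact 95% interval that covers counting error only.

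The endothelium keeps blood fluid and, when damaged, helps it to clot. Von Willebrand factor (Vwf) is stored in Weibel-Palade bodies, tethers platelets and carries factor VIII (F8). Thrombomodulin (Thbd) binds thrombin and the endothelial protein C receptor (Procr) holds protein C beside it, so that thrombin activates this anticoagulant. Tissue factor pathway inhibitor (Tfpi) blocks the start of the cascade, and its relative Tfpi2 is a matrix-associated serine protease inhibitor. Tissue-type (Plat) and urokinase-type (Plau) plasminogen activators turn plasminogen into plasmin, which dissolves fibrin. F2r encodes PAR1, the receptor by which thrombin signals to cells.

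Endothelial cells were taken as those with at least 2 Cdh5 UMIs (unique molecular identifiers, 1 per captured RNA molecule). These were 566 of 6814 control cells and 892 of 4459 Flcn iΔEC cells, 1458 of 11273 in all. A further 301 cells had 1 Cdh5 UMI and were left out, and 43 of those kept had exactly 2. Their median depth was 16127 UMIs for the control and 24415 UMIs for Flcn iΔEC. The libraries shared 6 cell barcodes. They also differed in sex, with 9 against 63462 Xist UMIs and 15535 against 17 UMIs of 4 Y-linked genes, so sex and genotype cannot be told apart, and F8 lies on the X chromosome. Flcn itself was counted at 16.2 CPM (25 counts) in the control and 10.1 CPM (79 counts) in the Flcn iΔEC lymphatic vessel cells, and at 8.16 (63 counts) against 10.9 CPM (121 counts) in the blood vessel cells. Which exons the flox sites flank was not given in the sources used here, and a 3′ tag outside them does not register the deletion, so these counts check nothing and the genotypes are those of the labels.

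Clustering without the 9 members and 55 related pathway genes gave 14 clusters. They were called "-like" from marker genes, because no deposited annotation was used. On the blood side, 70 control and 124 Flcn iΔEC cells were venous-like (Nr2f2, Nrg1), 55 and 111 large-artery-like (Gja5, Cytl1), 28 and 17 capillary-like (Rgcc, Esm1), and 58 and 76 high endothelial venule-like (HEV-like; Glycam1, Fut7). A Cxcl12-high cluster of 130 and 45 cells carried arterial and capillary markers together. Lymphatic endothelial cells (LECs, Prox1 and Ccl21a) fell into capillary-like (Lyve1-high, 14 and 21 cells), Lyve1-intermediate (43 and 158), collecting-like (Lyve1-low, Cldn11-high, 21 and 116) and lymph node sinus-like cells (18 and 43), the last led by Ccl2, Marco, Ccl7 and Pf4 over all clusters and by Clu, Madcam1, Ltb and Il7r among the lymphatic ones. Of the leading genes of the sinus-like cells among lymphatic clusters, Ltb, Il7r, Cd74, Il22 and H2-Aa are leukocyte genes, and the leukocyte list had as many genes 2-fold higher there as the sinus list (5 each). A cluster of 44 cells, with Prox1 but hardly any Lyve1, held cells of the Flcn iΔEC library and none of the control, and is called H19-high Prox1+ after genes it expressed, although haemoglobin genes led it. A proliferating cluster (54 and 61 cells) mixed vessel types, and 3 clusters led by leukocyte genes (75 and 76 cells) were left unnamed. A Ptprc UMI, a leukocyte mark, was found in 82.8% and 80.3% of HEV-like and in 66.7% and 37.2% of sinus-like cells, against 11.4% and 4.03% of venous-like cells. The platelet and megakaryocyte list summed to 364 CPM in control cells and 95.1 CPM in Flcn iΔEC sinus-like cells. The part that such cells had in the values below was not tested.

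**Figure D1:**
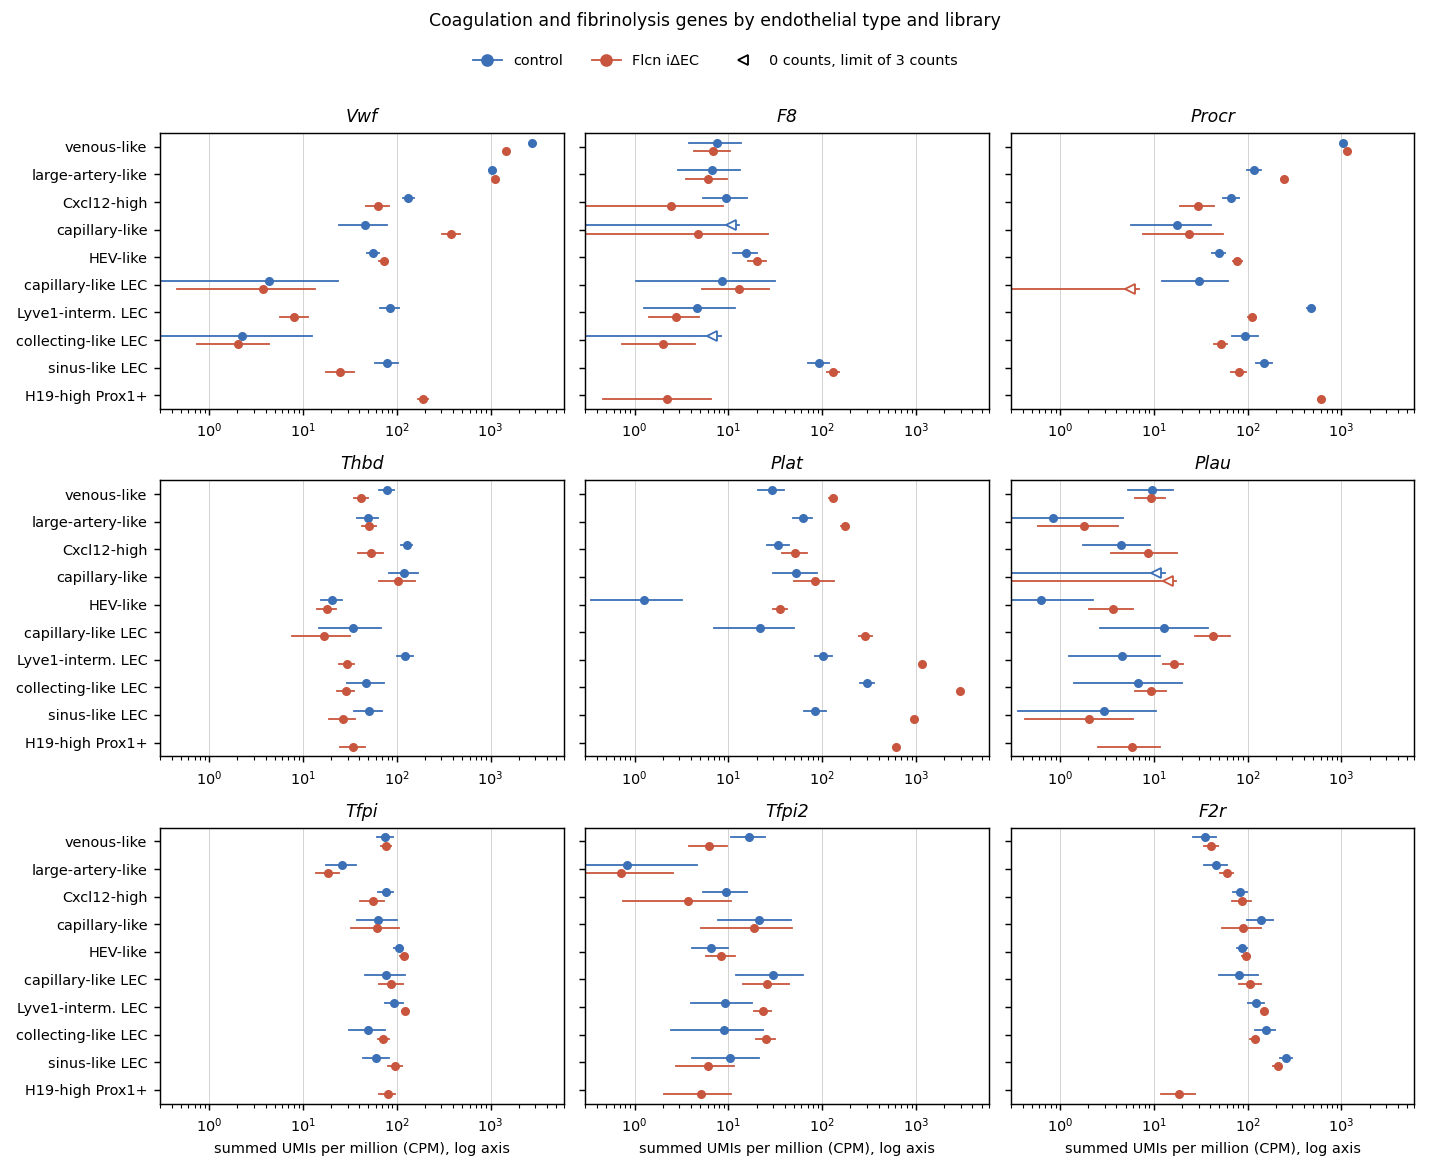
Level of each gene, 1 panel per gene, as summed UMIs per 1000000 UMIs (CPM, log axis) in each endothelial type of the control (blue) and Flcn iΔEC (red) libraries. Points are the level over all cells of a type in 1 library, lines the exact 95% counting interval, and open triangles a count of 0 drawn at the limit of 3 counts. Plat sits further right in red than in blue in all 9 types seen in both libraries, F8 stands out in sinus-like LECs, and Tfpi differs little.

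Levels are the summed UMIs of a gene in a type and library per 1000000 UMIs of that type and library (CPM). A 3′ count is not scaled by gene length, so levels are compared between cells and not between genes. Leukocytes from the same libraries (no Cdh5 UMI, at least 2 Ptprc UMIs, 4843 and 2420 cells) gave background values. These can mix free RNA with RNA of the leukocytes themselves. For Plat these were 0.854 and 5.90 CPM in the control and Flcn iΔEC libraries, for Vwf 3.90 and 3.15, for Procr 0.878 and 1.35, for F8 0.659 and 0.524, for Tfpi 6.07 and 9.22 and for F2r 14.3 and 14.9 CPM. For Thbd, Plau and Tfpi2 they lay between 0.0732 and 1.44 CPM.

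Plat, the tissue-type plasminogen activator (ENSMUSG00000031538, chromosome 8:22757727-22782844, plus strand), was the member that differed most between the libraries. In both, its summed level was higher in the LECs of vessels than in the blood types. Summed over the LECs of vessels it was 6.02 (4.94 to 7.34) times the level of the blood types in control cells and 17.7 (16.7 to 18.8) times in Flcn iΔEC cells, comparisons where 7.91% of 10289 and 7.72% of 11368 genes were 2-fold or more higher. These sums depend on the mix of types, and HEV-like cells, at 1.25 CPM, gave 3204626 of the 7716540 UMIs of the control blood types. Not each lymphatic type of the control was higher. Its capillary-like LECs (21.5 CPM) lay below large-artery-like (61.8), capillary-like (53.0), Cxcl12-high (34.2) and venous-like cells (29.0 CPM), with overlapping intervals. In collecting-like LECs Plat stood at 300.4 CPM (252 to 356) in control cells and 2934 CPM (2873 to 2997) in Flcn iΔEC cells. The Flcn iΔEC level was 9.77-fold (8.23 to 11.7) higher. Lyve1-intermediate LECs had 103 CPM (83.1 to 127) and 1146 CPM (1114 to 1178), 11.1-fold (9.0 to 13.8) higher. In capillary-like LECs 5 counts in the control gave 21.5 CPM and 155 counts in the Flcn iΔEC library 289 CPM, a ratio of 13.5 (5.65 to 42.0). Sinus-like LECs had 83.9 and 957 CPM, a ratio of 11.4 (8.75 to 15.1). In all 4 lymphatic types the intervals of the libraries did not overlap.

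In collecting-like and Lyve1-intermediate cells the difference was not carried by a few cells. The 25th percentile, median and 75th percentile of single collecting-like cells were 106, 201 and 488 CPM in control cells and 1187, 2364 and 4197 CPM in Flcn iΔEC cells. For Lyve1-intermediate cells they were 43.6, 90.1 and 132 and 481, 969 and 1635 CPM. In both types the upper quartile of the control lay below the lower quartile of the Flcn iΔEC cells. After each cell was thinned to 2000 UMIs, the share of Lyve1-intermediate cells that kept a Plat UMI was 25.6% (13.5 to 41.2) for the control and 75.9% (68.5 to 82.4) for Flcn iΔEC (exact Clopper-Pearson intervals), against 0.147% (0.0592 to 0.303) and 1.29% (0.880 to 1.83) of leukocytes. Without thinning these shares were 83.7% and 99.4%, and 0.661% and 5.04% in leukocytes, whose median depth was 7436 and 8238 UMIs against 14747 and 24081 in Lyve1-intermediate cells. Sinus-like cells were more uneven, with medians of 30.3 and 175 CPM, and the top 10% of the Flcn iΔEC cells held 66.6% of their Plat counts.

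**Figure D2:**
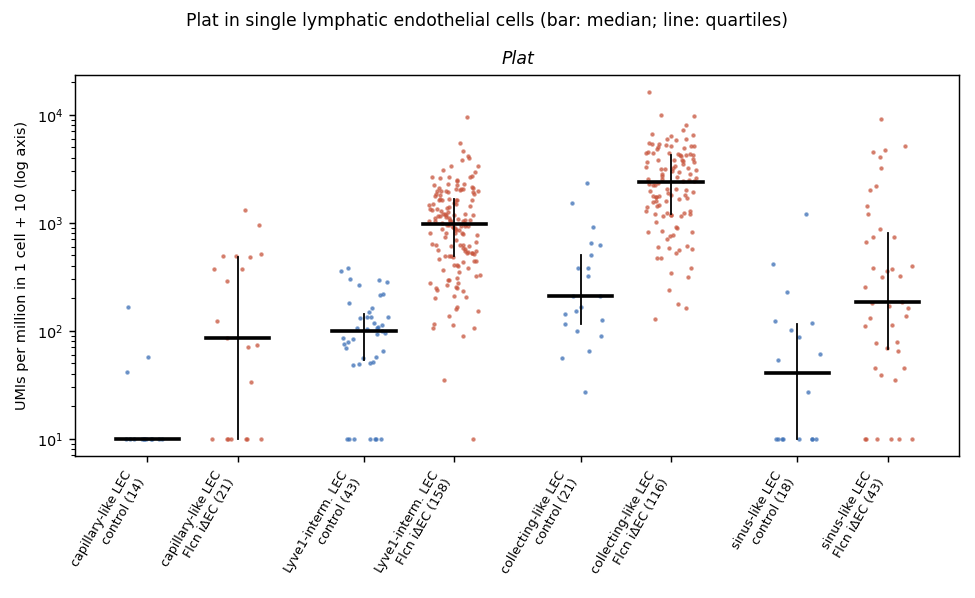
Plat in single lymphatic endothelial cells of the control (blue) and Flcn iΔEC (red) libraries, as CPM within the cell plus 10 on a log axis, with cell numbers in the labels. Bars mark medians and vertical lines the quartiles. The bulk of Flcn iΔEC Lyve1-intermediate and collecting-like cells lies above that of the control cells, while capillary-like and sinus-like cells spread from 0 upward.

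Among the LECs of vessels Plat kept the same order in both libraries, with collecting-like cells highest and capillary-like cells lowest. It was 14.0-fold (5.84 to 43.7) higher in collecting-like than in capillary-like LECs in control cells and 10.1-fold (8.65 to 12) higher in Flcn iΔEC cells. In these comparisons 9.08% of 2523 and 9.57% of 7123 tested genes were 2-fold or more higher. Over Lyve1-intermediate LECs, collecting-like cells were 2.91 (2.21 to 3.84) and 2.56 (2.47 to 2.65) times higher, where 3.47% and 3.05% of genes were 2-fold higher. Other members were 2-fold lower in that comparison, Vwf, Procr and Thbd in the control (as were 5.05% of genes) and Procr in the Flcn iΔEC library (2.58%). Vwf, Procr and Thbd each had under 50 counts in the control collecting-like LECs. They reached the minimum of 50 summed counts through the Lyve1-intermediate LECs, where they were high, so the number of these control calls supports nothing. In the control the Plat levels of Lyve1-intermediate and sinus-like cells had overlapping intervals.

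The blood types differed by less, HEV-like cells aside. Venous-like cells had 29.0 CPM (20.9 to 39.1) and 130.1 CPM (118 to 143), a ratio of 4.49 (3.27 to 6.33). Large-artery-like cells had 61.8 and 174 CPM, a ratio of 2.81 (2.20 to 3.64). For the Cxcl12-high cluster (34.2 against 51.6 CPM) and the capillary-like cells (53.0 against 84.6 CPM) the ratios of 1.51 (0.985 to 2.30) and 1.6 (0.760 to 3.40) had intervals that took in 1. HEV-like cells went from 4 counts (1.25 CPM) to 145 (35.5 CPM), and the top 10% of cells held 80.7% of the latter. The median HEV-like cell had no Plat UMI in either library, and the log2 ratio of 4.83 became 1.72 without integration and 2.48 with coarser clusters. Over all blood types together the ratio was 4.07 (3.49 to 4.78), and over the 3 LEC types of vessels 12 (10.5 to 13.7). These 2 intervals do not overlap, but the difference between the ratios was not tested. The proliferating cells, which include lymphatic ones, had 21.0 against 874 CPM, and their lymphatic marker list summed to 1052 and 3801 CPM. Stromal cells without Cdh5 and Ptprc (24 and 28 cells) had 103 against 144 CPM, with overlapping intervals.

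Plau, the urokinase-type activator (ENSMUSG00000021822, chromosome 14:20836660-20843385, plus strand), was low everywhere. Its highest level was in capillary-like LECs, with 3 counts (12.9 CPM) in control cells and 23 counts, or 43.0 CPM (27.2 to 64.4), in Flcn iΔEC cells. Lyve1-intermediate LECs had 4 counts (4.59 CPM) and 70 counts (16.3 CPM), a ratio of 3.54 (1.32 to 13.4), and Plau passed the minimum of 50 summed counts there through the Flcn iΔEC library. Collecting-like LECs had 6.78 against 9.44 CPM, from 3 and 28 counts. In the Flcn iΔEC library Plau was 4.55-fold (2.50 to 8.19) lower in collecting-like than in capillary-like LECs, where 5.67% of genes were 2-fold lower, so the 2 activators ran in opposite order along the lymphatic types. Venous-like cells held 9.65 against 9.30 CPM and large-artery-like cells 0.835 (1 count) and 1.79 CPM (5 counts). No Plau UMI was found in the 28 and 17 capillary-like cells, which allows levels of up to 10.6 and 14.1 CPM.

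Vwf (ENSMUSG00000001930, chromosome 6:125546774-125686679, plus strand) was highest in venous-like and large-artery-like cells and near the leukocyte level in collecting-like and capillary-like LECs. In venous-like cells it stood at 2771 CPM (2686 to 2858) in control cells and 1473 CPM (1432 to 1516) in Flcn iΔEC cells, 1.88-fold (1.80 to 1.96) lower. The quartiles of single cells were 1889, 2984 and 3836 CPM and 928, 1551 and 2090.5 CPM, and a Vwf UMI was present in 98.6% and 100% of cells, so the difference was one of level and not of the share of cells. Cell type markers differed between these cells too: the venous list summed to 1773 and 1105 CPM, the capillary list to 9412 and 4068, and the fibroblast and mural list to 157 and 38.1 CPM, with Aplnr at 574 and 227 and Col3a1 at 150.3 and 15.8 CPM. Their part in the result was not tested. Large-artery-like cells had 1029.8 CPM (973 to 1089) and 1115 CPM (1076 to 1155), a ratio of 1.08 (1.01 to 1.16). Vwf was 2.69 (2.52 to 2.87) times higher in venous-like than in large-artery-like cells of the control, where 8.18% of 6639 genes were 2-fold higher, and 1.32 (1.26 to 1.38) times higher in the Flcn iΔEC library. The order of these types was the same in both libraries, with a smaller gap in the Flcn iΔEC library.

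The smaller blood vessels had less Vwf. The Cxcl12-high cluster went from 134 to 62.7 CPM, 2.13-fold (1.56 to 2.95) lower, but with endothelial cells taken from 1 Cdh5 UMI on, or with coarser clusters, the log2 ratio turned to 0.14 and 0.08. Capillary-like cells went from 45.9 CPM (13 counts in 28 cells) to 381 CPM (81 counts in 17 cells), 8.29-fold (4.59 to 16.2) higher, and the median cell had 0 and 385 CPM. These cells formed no cluster of their own without integration, at the lower clustering resolution or from 1 Cdh5 UMI on, so the capillary-like ratio has no value there. HEV-like cells had 56.2 against 72.3 CPM, with a UMI in 65.5% and 34.2% of cells. Proliferating cells held 1223 against 369.8 CPM, 3.31-fold (3.08 to 3.56) lower, and their mix of vessel types was not the same in the libraries.

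In LECs of vessels Vwf was 14.9 (11.9 to 19) times lower than in the blood types of the control and 135 (100.4 to 187) times lower in the Flcn iΔEC library, in comparisons where 13.5% and 14.8% of genes were 2-fold lower. Lyve1-intermediate LECs of the control were the exception, with 85.0 CPM (66.7 to 107) from 74 counts and a UMI in 46.5% of 43 cells. The same type had 8.13 CPM (5.66 to 11.3) in the Flcn iΔEC library, 10.4-fold (6.90 to 16.1) lower. Collecting-like LECs (1 and 6 counts) and capillary-like LECs (1 and 2 counts) had levels between 2.02 and 4.30 CPM, as low as in leukocytes. In sinus-like LECs (78.0 against 25.1 CPM) the top 10% of cells held 98.1% and 100% of the counts. In the Flcn iΔEC library Vwf in sinus-like cells was 4.56 (2.86 to 7.25) times that of the LECs of vessels, but in cells without a Ptprc UMI the log2 ratio was -1.87.

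F8, which encodes factor VIII (ENSMUSG00000031196, chromosome X:75172715-75382615, minus strand), had its highest level in sinus-like LECs. It stood there at 92.7 CPM (71.3 to 119) in control cells and 129.8 CPM (112 to 149.5) in Flcn iΔEC cells, from 63 and 191 counts. This was 23.9-fold (10.4 to 67.6) and 40.5-fold (26.6 to 64.2) higher than in the LECs of vessels, in comparisons where 6.5% of 6226 and 7.86% of 9644 genes were 2-fold higher. F8 reached 50 summed counts there through the sinus-like cells, where it was high, so these calls support nothing. A UMI was found in 50% and 48.8% of the sinus-like cells, and the top 10% of cells held 61.9% and 51.8% of the counts. HEV-like cells came next with 15.3 against 20.3 CPM, and every other named type lay below 14 CPM. Leukocytes of the same libraries had F8 at 0.659 and 0.524 CPM, and the leukocyte list summed to 1384 and 552 CPM in sinus-like cells. The part of leukocyte or platelet RNA in the F8 level was not tested. The ratio between the libraries in sinus-like LECs was 1.40 (1.05 to 1.89), and over 10 settings of the analysis it ran from 0.304 to 1.52, the lowest in cells without a Ptprc UMI, so its direction depended on the setting. The ratio of sinus-like LECs over LECs of vessels ran from 13.3 to 69.1 in control cells and from 25.5 to 42.8 in Flcn iΔEC cells over the same settings. F8 overlaps Fundc2 on the opposite strand, and whether counting used the strand was not given in the sources used here. In the vessel LECs F8 was too sparse to compare between the libraries (6 and 25 counts).

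**Figure D3:**
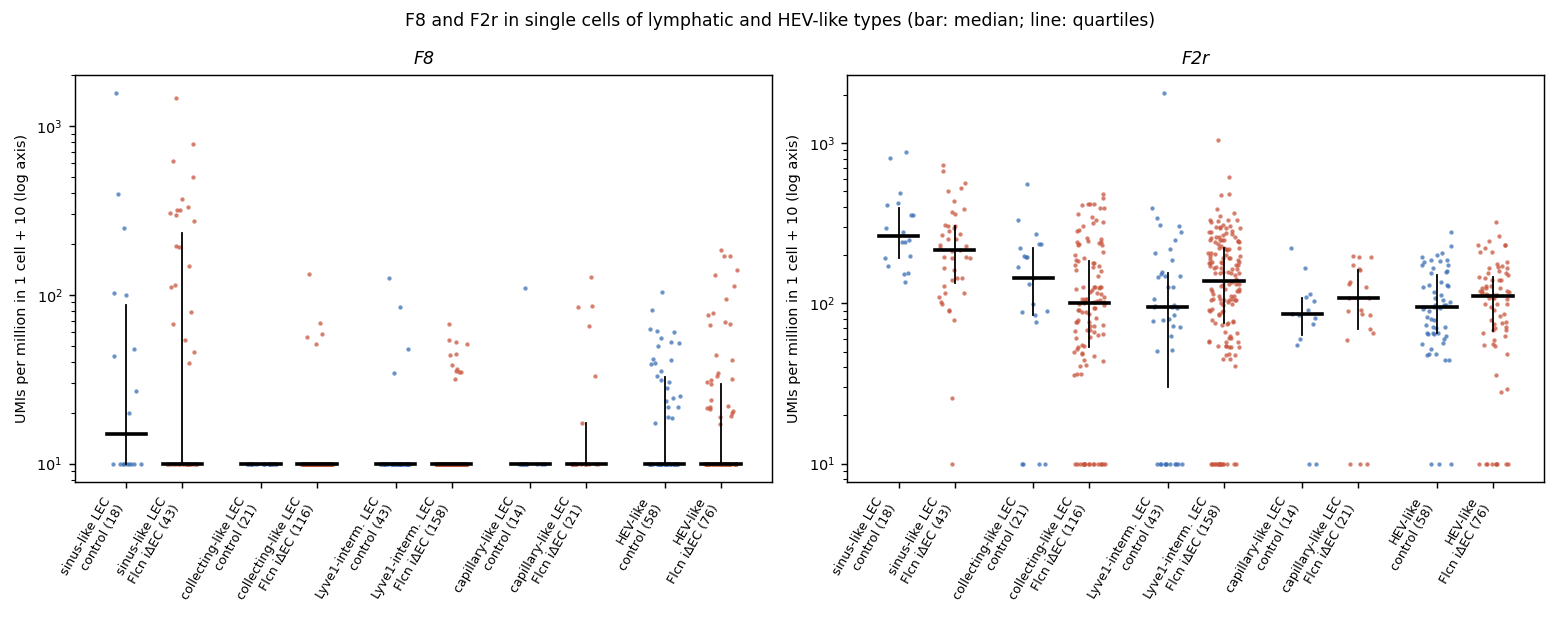
F8 (left) and F2r (right) in single cells of the lymphatic types and of HEV-like cells, as CPM within the cell plus 10 on a log axis, control in blue and Flcn iΔEC in red, with cell numbers in the labels, medians as bars and quartiles as vertical lines. F8 is seen in about as many sinus-like cells as not and in few cells of the vessel types, and F2r is highest in sinus-like cells of both libraries.

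F2r, the thrombin receptor PAR1 (ENSMUSG00000048376, chromosome 13:95601803-95618487, minus strand), was highest in sinus-like LECs in both libraries. Sinus-like LECs had 259 CPM (222 to 300.3) and 209 CPM (187 to 234), and 100% and 97.7% of the cells held a UMI. Against the LECs of vessels the ratio was 2.05 (1.67 to 2.53) in control cells and 1.54 (1.36 to 1.75) in Flcn iΔEC cells. Over 10 settings of the analysis this ratio ran from 1.31 to 3.24 in control cells and from 0.9999 to 2.16 in Flcn iΔEC cells. The excess of sinus-like LECs in the Flcn iΔEC library thus depended on the setting. Collecting-like (156 against 119 CPM), Lyve1-intermediate (123 against 151 CPM) and capillary-like LECs (81.7 against 106 CPM) had less, and the capillary-like blood cells of the control had 138 CPM on 39 counts. LECs of vessels exceeded the blood types by 1.74 (1.47 to 2.06) and 1.92 (1.75 to 2.11). Venous-like cells (35.2 against 40.9 CPM) and large-artery-like cells (45.9 against 59.8 CPM) were the lowest of the 9 types in both libraries. Leukocytes had 14.3 and 14.9 CPM. No type with 50 or more counts differed by 2-fold between the libraries, and the ratios ran from 0.648 (0.354 to 1.15) in capillary-like to 1.30 (0.955 to 1.80) in large-artery-like cells.

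Procr, the protein C receptor (ENSMUSG00000027611, chromosome 2:155751117-155755471, plus strand), was highest in venous-like cells in both libraries. In venous-like cells it stood at 1037 CPM (985 to 1091) in control cells and 1150.2 CPM (1113 to 1188) in Flcn iΔEC cells, a ratio of 1.11 (1.04 to 1.18). This was 8.81 (7.41 to 10.5) and 4.66 (4.29 to 5.06) times the level in large-artery-like cells, where in the Flcn iΔEC library 7.33% of 8627 genes were 2-fold higher. Large-artery-like cells themselves went from 118 to 247 CPM, 2.10-fold (1.75 to 2.54) higher, with medians of 106 and 207 CPM per cell. HEV-like cells had 49.0 against 77.4 CPM, a ratio of 1.58 (1.30 to 1.93) that fell below 1 without integration and with coarser clusters (log2 ratios of -0.14 and -0.17), and the Cxcl12-high cluster 67.1 against 29.5 CPM, 2.27-fold (1.45 to 3.70) lower. In capillary-like cells there were 5 counts in each library.

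In LECs the Procr ratios lay below 1. Lyve1-intermediate LECs had 469.6 CPM (425 to 517) in the control, nearest to the venous-like level of all other control types, and 111 CPM (102 to 122) in the Flcn iΔEC library, 4.22-fold (3.69 to 4.82) lower. Their quartiles were 187, 475 and 814 CPM and 37.2, 84.8 and 164 CPM, so that the upper quartile of the Flcn iΔEC cells lay below the lower quartile of the control cells. Collecting-like LECs (94.9 against 51.9 CPM) and sinus-like LECs (150.1 against 80.9 CPM) were lower by factors of 1.83 (1.27 to 2.59) and 1.86 (1.41 to 2.44). Capillary-like LECs had 7 counts in control cells and 0 in Flcn iΔEC cells, which allows up to 5.6 CPM. Over the blood types the Procr ratio of LECs of vessels was 1.19 (1.08 to 1.32) in control cells and 0.190 (0.175 to 0.207) in Flcn iΔEC cells. Over 10 settings of the analysis it ran from 0.776 to 1.23 in control cells, so its direction there depended on the setting. In Flcn iΔEC cells it ran from 0.138 to 0.197. These sums depend on the mix of types.

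**Figure D4:**
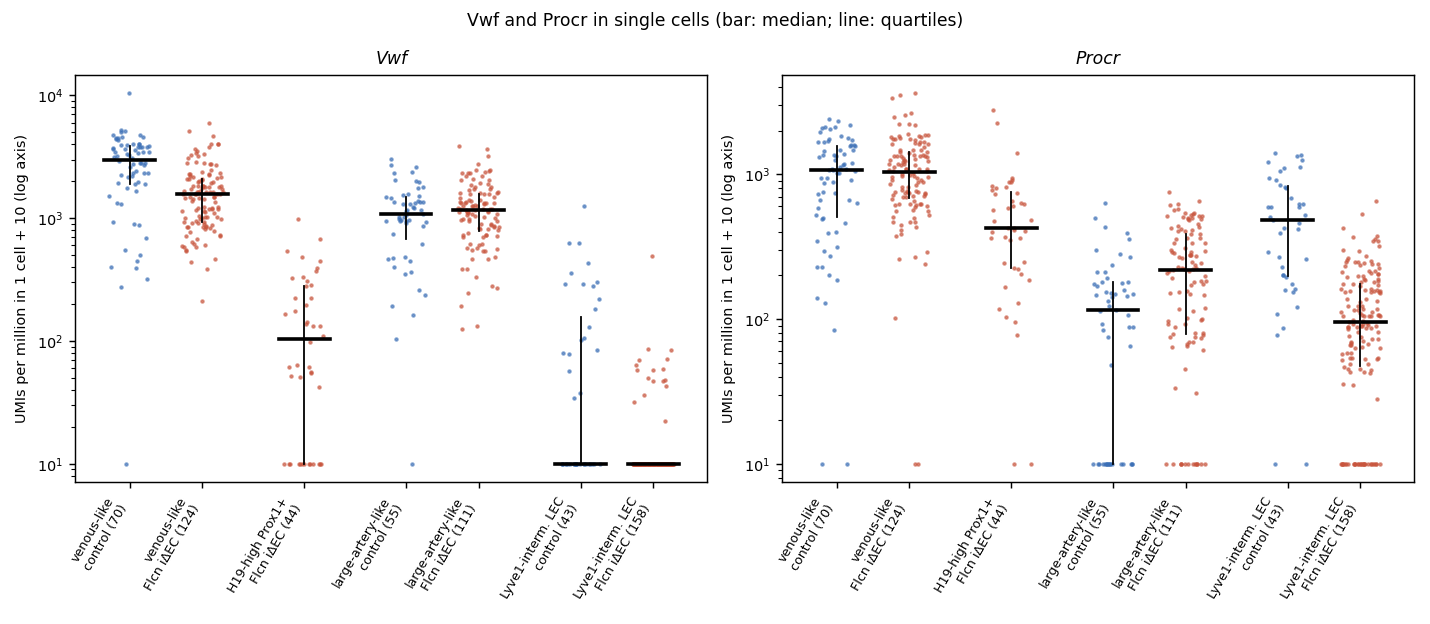
Vwf (left) and Procr (right) in single venous-like, H19-high Prox1+, large-artery-like and Lyve1-intermediate cells, as CPM within the cell plus 10 on a log axis, control in blue and Flcn iΔEC in red, with cell numbers in the labels, medians as bars and quartiles as vertical lines. Vwf is lower in Flcn iΔEC venous-like cells, Procr is lower in Flcn iΔEC Lyve1-intermediate cells, and the H19-high cluster lies below the venous-like cells of its library in both genes, by more in Vwf.

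Thbd, thrombomodulin (ENSMUSG00000074743, chromosome 2:148404466-148408188, minus strand), had its largest difference in Lyve1-intermediate LECs, like Procr, and was lower in venous-like cells too, unlike Procr. Lyve1-intermediate LECs had 123 CPM (101 to 148) and 29.3 CPM (24.4 to 34.9), 4.20-fold (3.21 to 5.47) lower in the Flcn iΔEC library. Collecting-like (47.4 against 28.7 CPM), sinus-like (50 against 26.5 CPM) and capillary-like LECs (34.4 against 16.8 CPM) were lower by less than 2-fold or on under 50 counts, and without integration the log2 ratio of collecting-like LECs turned to 0.40. In the blood types the Cxcl12-high cluster was 2.42-fold (1.73 to 3.44) lower (128 against 52.9 CPM) and venous-like cells 1.89-fold (1.46 to 2.45) lower (78.6 against 41.5 CPM). Large-artery-like (49.2 against 51.2 CPM), capillary-like (120.1 against 103 CPM) and HEV-like cells (20.3 against 17.9 CPM) had overlapping intervals. The shear-responsive factors Klf2 and Klf4, known activators of Thbd, stood beside it as follows. Klf2 was at 1599 and 1554 CPM and Klf4 at 809 and 886 CPM in Lyve1-intermediate cells. In venous-like cells Klf2 was at 1817 against 806 and Klf4 at 748 against 469 CPM.

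The Lyve1-intermediate cells of the libraries also differed in markers that were not members. Lyve1 went from 295 to 649.8 CPM and Ccl21a from 1364 to 4478 CPM, while Prox1 went from 514 to 332 CPM. The pan-endothelial list summed to 6944 and 4684 CPM, and the immediate early list, which responds to cell dissociation, to 4123 and 2159 CPM. In venous-like cells the immediate early list stood at 5279.6 and 3363 CPM. The part of these shifts in the Procr, Thbd, Vwf and Plat differences was not tested. Over 10 settings, clustering included, the Procr ratio in these cells ran from 0.206 to 0.292, the Vwf ratio from 0.0608 to 0.123 and the Thbd ratio from 0.194 to 0.298.

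Tfpi (ENSMUSG00000027082, chromosome 2:84432855-84476775, minus strand) differed little between the libraries. Its level was lowest in large-artery-like cells (25.9 against 18.6 CPM) and highest in HEV-like cells of the control (105 CPM) and in Lyve1-intermediate LECs of the Flcn iΔEC library (124 CPM). Venous-like cells had 75.2 CPM (61.7 to 90.7) and 76.8 CPM (67.6 to 87.0), 2.91 (1.93 to 4.48) and 4.13 (3.05 to 5.68) times the arterial level. Between the libraries no type reached 2-fold. The ratio was 1.6 (1.12 to 2.32) in sinus-like LECs, 1.31 (1.04 to 1.68) in Lyve1-intermediate LECs and 1.02 (0.813 to 1.29) in venous-like cells. Leukocytes had 6.07 and 9.22 CPM.

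Tfpi2 (ENSMUSG00000029664, chromosome 6:3962595-3988919, minus strand) was low, with levels from 0.716 CPM in large-artery-like to 30.1 CPM (7 counts) in capillary-like cells of the lymphatic side. Lyve1-intermediate LECs had 8 and 100 counts (9.18 against 23.2 CPM), a ratio of 2.53 (1.24 to 6.02), and collecting-like LECs 4 and 75 counts (9.04 against 25.3 CPM), a ratio of 2.80 (1.05 to 10.5). Venous-like cells went the other way, with 24 and 20 counts (16.5 against 6.20 CPM), a ratio of 0.374 (0.196 to 0.707) on fewer than the 50 counts required of a call. Leukocytes had 3 and 2 counts in all. In sinus-like LECs of the Flcn iΔEC library Tfpi2 and Plau were 3.96 (2.04 to 8.79) and 7.61 (2.54 to 37.4) times lower than in LECs of vessels, where 8.9% of genes were 2-fold lower. They stood at 6.11 and 2.04 CPM in these sinus-like cells. Both reached 50 counts through the vessel LECs, where they were high, so these calls support nothing.

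Promoters of Tfpi, Procr, Tfpi2, F2r and F8 (5 of the 9 members) were matched by symbol in a RefSeq table of the GRCm38.p6 build, which gives 300 bases around each annotated start. They were searched on both strands for CACGTG, the E-box that MiT/TFE factors such as TFE3 can bind and that reads the same on either strand. A match was found in 1 of their 8 windows, that of a Tfpi start, and 7.15% of all 32851 windows of this length held the motif. The Tfpi window is shown because it held the match, in capitals. The Procr window, all in lower case, is shown because Procr differed most between libraries in LECs among the 5, being lower in Flcn iΔEC. The Tfpi match lies after the annotated start.
Tfpi, chr2:84476710-84477009, minus strand: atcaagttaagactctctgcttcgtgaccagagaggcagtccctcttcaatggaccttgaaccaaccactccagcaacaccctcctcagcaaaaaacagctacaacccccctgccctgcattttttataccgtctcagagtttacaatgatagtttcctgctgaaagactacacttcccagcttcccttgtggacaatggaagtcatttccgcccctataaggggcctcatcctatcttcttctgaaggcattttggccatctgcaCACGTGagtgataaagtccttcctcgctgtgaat
Procr, chr2:155750967-155751266, plus strand: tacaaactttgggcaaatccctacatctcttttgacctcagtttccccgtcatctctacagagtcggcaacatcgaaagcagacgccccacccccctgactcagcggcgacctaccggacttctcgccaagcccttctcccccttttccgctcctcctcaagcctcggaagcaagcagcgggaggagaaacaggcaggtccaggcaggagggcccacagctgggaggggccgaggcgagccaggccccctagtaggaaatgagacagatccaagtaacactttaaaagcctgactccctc

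The H19-high Prox1+ cluster, seen in none of the control cells, lay between the venous-like cells and every LEC type in Vwf and Procr. It had Nr2f2 at 334 and Prox1 at 501 CPM, against 319 and 152 CPM in venous-like cells of the same library, and Lyve1 at 4.44 CPM. Plat stood at 611 CPM (569.7 to 654), 4.69-fold (4.17 to 5.29) above the venous-like cells, in a comparison where 3.46% of 7984 genes were 2-fold higher and 6.28% lower. Vwf stood at 189 CPM (167 to 214), 7.78-fold (6.86 to 8.86) below them, and F2r at 18.5 CPM (12 to 27.3), 2.21-fold (1.44 to 3.54) below. This F2r level was the lowest of all named types of the library, with capillary-like LECs at 106 CPM. The Plat level lay above that of capillary-like LECs (289 CPM) and below the other lymphatic types. Procr, at 605 CPM (565 to 648), was 1.90 (1.76 to 2.05) times lower than in venous-like cells but above every lymphatic type of the library. Thbd, Tfpi, Plau, Tfpi2 and F8 had intervals that overlapped those of venous-like cells. Haemoglobin genes led the cluster, with an erythroid list of 10279 CPM against 52.1 CPM in venous-like cells, and the part of red cell RNA in these levels was not tested. The study had listed genes for such cells on these same samples, Vwf and Plat included, so their values here are a description. It also reported lower vWF protein in venous endothelial cells of Flcn iΔEC mice by immunohistochemistry. A cluster of 1 library may be that library and not a cell type.

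Venous-like cells of the Flcn iΔEC library could be split by Prox1 within the cluster, at a limit of 200 CPM that was set after the values were seen. The 21 cells at or above it had Plat at 224 CPM (193 to 258) and the 103 below it at 96.7 CPM (84.6 to 110.0). Vwf went the other way, at 1159 CPM (1088 to 1234) against 1585 CPM (1535 to 1637), and Procr stood at 1378 CPM (1300.2 to 1459) and 1069 CPM (1028 to 1111). A range of 100 to 400 CPM around the limit held 25 cells, so this is a cut through a range and not a pair of types. The control had 3 venous-like cells above the limit, too few to describe.

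Members past 2-fold were most numerous in Lyve1-intermediate LECs. In Lyve1-intermediate LECs 3 of 8 members with 50 counts or more were higher (Plat, Plau, Tfpi2) and 3 lower (Vwf, Procr, Thbd), where 4.8% of the 8105 genes with at least 50 summed counts were 2-fold or more higher and 6.45% as much lower. Plau and Tfpi2 reached 50 counts through the Flcn iΔEC library, where they were high, Tfpi2 in collecting-like LECs as well, so their counts support nothing. Collecting-like LECs had Plat and Tfpi2 higher among 6 (6.52% of 7088 genes higher, 6.53% lower), and capillary-like LECs Plat among 3 (5.02% and 4.13% of 2588). Sinus-like LECs had Plat higher and Vwf lower among 7 (3.72% and 4.43% of 5866). Venous-like cells had Plat higher among 6 (3.63% and 4.49% of 8152), large-artery-like cells Procr and Plat higher among 6 (2.85% and 2.91% of 7426) and HEV-like cells Plat higher among 8 (2.67% and 1.69% of 9450). The Cxcl12-high cluster had Vwf, Procr and Thbd lower among 6 (2.28% and 4.09% of 6282) and capillary-like cells Vwf higher among 3 (4.7% and 3.5% of 1744). Proliferating cells had Plat higher and Vwf lower among 7 (3.83% and 5.51% of 8623). Over the 3 LEC types of vessels 2 of 8 members were higher (Plat, Plau) and 3 lower (Vwf, Procr, Thbd), and the median log2 ratio was 0.23 for 8 members and -0.18 for all 9579 genes, of which 4.15% were 2-fold higher and 6.3% lower. Over the blood types it was 0.02 for 9 members and -0.09 for 11442 genes (2.34% higher, 3.15% lower). Other calls too had under 50 counts in the library where the gene was low. These were Plat in capillary-like LECs and in HEV-like, venous-like and proliferating cells, and Procr and Thbd in the Cxcl12-high cluster. They were also Vwf in capillary-like cells, Lyve1-intermediate and sinus-like LECs, and Vwf and Plau over the LECs of vessels. Such calls reached 50 counts through the library where the gene was high, so their number supports nothing. The same holds for calls between types with under 50 counts on the low side. Vwf in the Flcn iΔEC LECs of vessels and F2r in the H19-high cluster are among them.

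**Figure D5:**
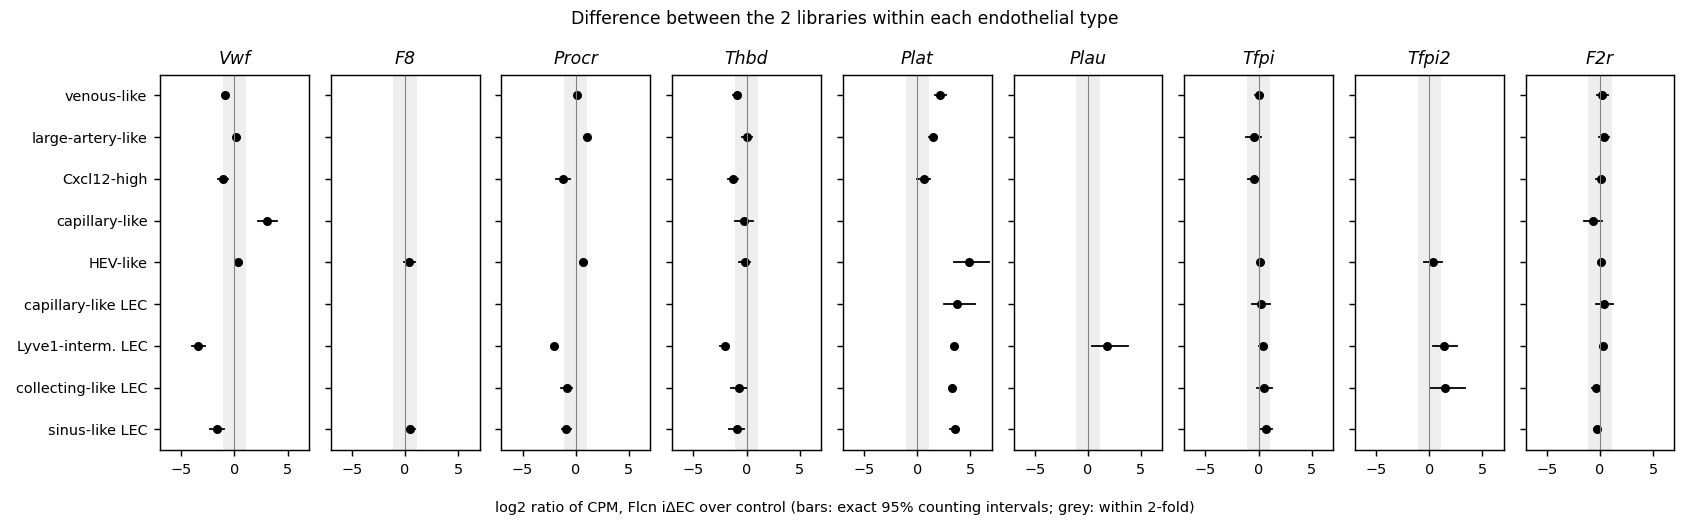
Log2 ratio of the level in the Flcn iΔEC library over that in the control, 1 panel per gene and 1 row per endothelial type, with exact 95% counting intervals and the range within 2-fold shaded. Pairs with fewer than 50 summed counts are left out. Plat lies right of 0 in every row drawn, by more in the lymphatic rows and HEV-like cells, while Vwf and Procr lie on both sides.

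The genes whose level was most like that of a member were sought over the 19 pairs of named type and library (18 in both libraries and the H19-high cluster), by Pearson's r of log2(CPM + 1) among 5839 genes with at least 50 CPM in 1 pair. These pairs share libraries and differ in depth, so r is a description. For Plat they were Vps29 (r = 0.89), Atp6v1a (r = 0.86), Atp6v0b (r = 0.86), of which Atp6v1a and Atp6v0b encode subunits of the vacuolar proton pump and Vps29 a part of the retromer. For Vwf they were Myof (r = 0.91), Gpx7 (r = 0.90), Marveld1 (r = 0.89), and for Procr Cd320 (r = 0.84), Tmem158 (r = 0.84), Itgb4 (r = 0.82). Thbd had Pea15a (r = 0.87), Serpinh1 (r = 0.86), Hook3 (r = 0.86), F8 had Calm3 (r = 0.85), Birc2 (r = 0.84), Chd2 (r = 0.83) and F2r had Ttyh2 (r = 0.85), Tnik (r = 0.81), Nab1 (r = 0.81). For the low or even members they were Sgsm1 (r = 0.83), Gdi2 (r = 0.82), Dtnbp1 (r = 0.82) with Plau, Vav3 (r = 0.89), Ahr (r = 0.84), Hic1 (r = 0.84) with Tfpi2 and Rpl5 (r = 0.84), Zfos1 (r = 0.83), Stap2 (r = 0.82) with Tfpi.

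Of 55 further genes of the coagulation system, in 5 lists, 24 reached 50 CPM in a named type: 3 of 20 coagulation factors and cofactors, 8 of 17 anticoagulant and fibrinolysis regulators, 2 of 3 other thrombin and protease-activated receptors, 7 of 11 Weibel-Palade body and multimerin genes and 4 of 4 endothelial platelet inhibitors. Over the LECs of vessels 6 of 23 tested genes were 2-fold or more higher in the Flcn iΔEC library (Gas6, Plaur, Cd63, Angpt2 and Entpd1 among them) and 3 lower, Mmrn2 and Nos3 among them, against 4.15% and 6.3% of all genes. Some of the higher genes, Entpd1 among them, reached 50 counts through the Flcn iΔEC library, where they were high, so their number supports nothing. The median log2 ratio of the 23 tested genes was 0.14. Over the blood types 2 of 31 were higher (Gas6, Cd63) and 0 lower, with a median of 0.06.

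Beside Plat and Plau, Plaur, the receptor that holds urokinase at the cell surface, was 4.74-fold (3.34 to 6.97) higher in collecting-like (72.3 against 343 CPM) and 2.62-fold (2.11 to 3.28) higher in Lyve1-intermediate LECs (103 against 270.4 CPM). Anxa2, which binds plasminogen and Plat at the membrane, stayed within 2-fold in all types tested, from 0.834 in large-artery-like to 1.66 in HEV-like cells. Its partner S100a10 was 2.80-fold (2.67 to 2.93) lower in venous-like cells (2813 against 1004 CPM).

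Among the Weibel-Palade genes, Cd63, a membrane protein of these bodies and of lysosomes, was higher in all 8 named types tested, by 6.65 (5.88 to 7.55) in venous-like, 6.38 (5.87 to 6.95) in Lyve1-intermediate and 2.68 (2.42 to 2.98) in large-artery-like cells. Angpt2, a growth factor stored there, was 8.13-fold (5.52 to 12.5) higher in Lyve1-intermediate LECs (29.9 against 243 CPM) and 2.79 (2.06 to 3.85) times higher in collecting-like ones. Myrip, which tethers the bodies to the cytoskeleton, was 3.96-fold (2.94 to 5.36) lower in venous-like cells (88.3 against 22.3 CPM), while Selp, the P-selectin they carry, had a ratio of 1.16 (0.918 to 1.47) there. Mmrn1, the lymphatic multimerin, had 1010.3 against 1194 CPM in Lyve1-intermediate LECs, and Mmrn2 was 2.59-fold (2.09 to 3.21) lower there and 3.68-fold (2.44 to 5.61) lower in capillary-like LECs.

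Gas6, a vitamin K-dependent ligand related to protein S, was higher by 9.46 (6.38 to 14.7) in collecting-like, 2.67 (2.29 to 3.14) in Lyve1-intermediate, 5.70 (3.82 to 8.86) in sinus-like and 2.78 (2.37 to 3.26) in large-artery-like cells. It was also more than 2-fold higher in HEV-like cells (9.05 against 90.4 CPM) and capillary-like LECs (193 against 655 CPM). Pros1, protein S itself, reached 2-fold in 1 of the named types tested, HEV-like cells, with a ratio of 2.60 (1.87 to 3.67). Of the platelet inhibitors, Nos3 (nitric oxide synthase) was lower by 2.63-fold (2.10 to 3.29) in Lyve1-intermediate and 2.56-fold (1.99 to 3.27) in collecting-like LECs, with ratios of 0.521 (0.447 to 0.608) and 0.526 (0.448 to 0.618) in venous-like and large-artery-like cells. Ptgs1 (cyclooxygenase 1) was 2.67-fold (2.27 to 3.14) lower in venous-like cells (232 against 86.8 CPM).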

How the data were processed

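Per the labels, single CD31+ cells went through the 10x Chromium 3′ v3 chemistry and were sequenced on a HiSeq3000. The values used are the UMI counts per gene and cell that the authors deposited, made with Cell Ranger 3.0 on mm10 according to the submitters' processing notes and not normalized. All 11273 barcodes were kept, and called doublets (2.08% of control and 0.830% of Flcn iΔEC cells, Scrublet in scanpy 1.11.5) were removed only as an alternative. The libraries held 64639756 and 60805779 UMIs. Cells with at least 2 Cdh5 UMIs were integrated with anchors and clustered in Seurat 5.3.0 (R 4.3.3; 2000 variable features less the members and pathway genes, leaving 1981, 30 dimensions, resolution 0.8). Clusters were named from marker lists, with thresholds set after the clusters were seen. Counts were summed per type and library as CPM (Python 3.11.15, numpy 2.4.6, scipy 1.17.1, pandas 2.3.3). Levels have exact Poisson, ratios exact conditional binomial and shares Clopper-Pearson intervals, which cover counting error only, and a count of 0 allows up to 3 counts. A call was a 2-fold ratio at 50 or more summed counts over both sides, and the steps were tested on simulated data. With 1 library per genotype no test was made. Named genes were all members, pathway genes with at least 50 CPM in a named type, and the 3 genes most like each member. The values of 1 pathway gene are not reported here. The members and lists were chosen with earlier results of these data known. Alternatives varied the Cdh5 minimum, Ptprc, quality and doublet filters, integration, resolution, scaling, weighting of cells, count minimum and thinning.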

Additional observations from a re-analysis of the deposited data

Results flagged for a closer look

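For Vwf and Procr the difference between the libraries ran in opposite directions in different endothelial types, each by at least 1.5-fold with an interval that left out 1. With 1 library per genotype, the difference between types was not tested. The ratio of Flcn iΔEC over control for Vwf was 8.29 in capillary-like cells, against 0.532 in venous-like cells, 0.470 in the Cxcl12-high cluster, 0.0957 in Lyve1-intermediate LECs and 0.322 in sinus-like LECs. For Procr it was 2.10 in large-artery-like and 1.58 in HEV-like cells, against 0.440 in the Cxcl12-high cluster, 0.237 in Lyve1-intermediate, 0.547 in collecting-like and 0.538 in sinus-like LECs. Vwf in capillary-like cells rests on 13 counts of 28 control cells, and its ratio had no value in some settings of the analysis. Across the settings the Vwf ratio in the Cxcl12-high cluster reached 1.11 and the Procr ratio in HEV-like cells 0.890, so both directions depended on the setting. Vwf in sinus-like LECs was held by few cells. In the Lyve1-intermediate cells Lyve1 and Ccl21a differed between the libraries too, and their part in the result was not tested.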

How the results depend on the processing

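Of 61 ratios past 2-fold, 531 of 534 alternatives kept the direction. The 3 reversals were Vwf in the Cxcl12-high cluster, with a log2 ratio of 0.14 from 1 Cdh5 UMI on and 0.084 at resolution 0.4, and Vwf in sinus-like over vessel LECs of the Flcn iΔEC library, at -1.87 in cells without a Ptprc UMI. The cause was not tested. Among all 150 ratios, 1173 of 1313 alternatives stayed inside the counting interval of the reported ratio, and 194 of 342 alternative thinnings moved a share of cells outside its interval, since thinning sets the depth. Of 35 counts of genes past 2-fold, 205 of 235 alternatives stayed within 1.5 times. The other 30 were as follows. Members past 2-fold between the libraries went from 1 to 2 in venous-like cells without integration, with at least 20 summed counts or with 1 count in each library. In the Cxcl12-high cluster they went from 3 to 0 from 1 Cdh5 UMI on, to 1 without integration, at resolutions 0.4 and 1.6 and with the mean over cells, and to 5 with 1 count in each library. They went from 2 to 1 in large-artery-like cells with the mean over cells, from 1 to 2 in HEV-like cells with 1 count in each library, and from 2 to 4 in sinus-like LECs from 1 Cdh5 UMI on. Capillary-like LECs went from 1 to 2 with called doublets removed, at resolution 0.4 or with 20 counts, and to 3 with 1 count in each library. Collecting-like LECs went from 2 to 1 without integration and with the mean over cells, and to 4 at resolution 1.6. The blood types together went from 1 to 3 with the mean over cells. Between types, collecting-like over capillary-like LECs of the control went from 1 to 2 from 1 Cdh5 UMI on, without Ptprc, without doublets and at resolution 1.6, sinus-like over vessel LECs of the control from 2 to 5 from 1 Cdh5 UMI on and to 4 without doublets, and collecting-like over Lyve1-intermediate LECs of the Flcn iΔEC library from 2 to 1 at resolution 1.6. With 20 counts the pathway genes past 2-fold went from 3 to 6 in the Cxcl12-high cluster, from 0 to 3 in capillary-like cells and from 2 to 4 in the blood types. Capillary-like cells gave no value from 1 Cdh5 UMI on, without integration and at resolution 0.4, nor collecting-like LECs at resolution 0.4. No paired analysis was possible because each genotype has 1 library, and no replicate could be left out. Depth limits Plau, Tfpi2 and F8 most, with under 50 counts in most types.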
